A study of Mus musculus with 6 samples.

Results

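Changes that inhibition of the kinase DYRK1A by a drug and knock-down of its mRNA have in common were sought by taking the 2 libraries of harmine-treated cells and the 2 libraries of *Dyrk1a* shRNA cells together, as 4 treated libraries, against the 2 libraries of untreated control shRNA cells. The 4 treated libraries are 4 of the 6 libraries of the series, chosen by their labels alone. Across all genes, 1 passed the test, *Gm20604*, which had counts in every treated library and in neither control. It shares most exon bases of *Moap1*, and the summed level of these 2 genes overlapped between groups. The genes described after *Gm20604*, such as the growth factor receptor gene *Fgfr3*, did not pass and are given by their values.

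All libraries came from CD4+CD62L+ cells purified with magnetic beads from spleens of BALB/c mice at 12 weeks of age and activated on plates coated with antibodies to CD3 and CD28. Virus carrying an shRNA was added after 24 h and medium with IL-2 a further 24 h later, and cells were harvested 48 h after that. Control cells carried a scramble shRNA and received no drug, harmine cells carried the same scramble shRNA with harmine at 3.7 µM, and *Dyrk1a* shRNA cells carried a hairpin against *Dyrk1a* with no drug. Every group, controls included, was therefore activated and virus-infected, and the treated group mixes a drug on top of the control hairpin with a hairpin alone. The sources used here give neither the hairpin used nor whether replicates came from separate mice or cultures, so p-values measure the spread between these libraries, which may be technical.

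DYRK1A is a serine and threonine kinase that phosphorylates, among others, the NFAT transcription factors, which carry the calcium signal of the T cell receptor to the nucleus and leave it again once phosphorylated. It also phosphorylates cell cycle proteins, such as D-type cyclins and the DREAM complex component LIN52, and helps cells leave the cycle for quiescence. Harmine is a plant β-carboline that binds the ATP pocket of DYRK1A and also inhibits other kinases and monoamine oxidase A, targets that the hairpin is not designed to hit.

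The treated libraries were deeper than both controls, with 2678872 to 3747648 counts against 1743428 and 1096345, so depth and treatment cannot be told apart, and neither can treatment and the i5 sequencing index, which was the same within each group. The controls differed from each other more than the treated replicates did. The chi-square statistic per degree of freedom over genes was 10.4 between the controls, 3.84 between the harmine libraries and 3.58 between the *Dyrk1a* shRNA libraries. Ribosomal protein genes took 22.3% of counts in control replicate 1, 12.6% in control replicate 2 and 15.2% to 16.6% in the treated libraries, so the treated libraries lay between the controls. T cell markers, a list of *Cd4* and of genes mostly not particular to CD4 cells, were present in every library. Their summed level was 5150 and 5500 in the controls and 5000 to 5760 in the treated libraries. It is given in CPM, read counts normalised to the library size after TMM scaling. All levels below are in this unit, which does not correct for gene length and is compared only between libraries for 1 gene.

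*Dyrk1a* itself, the gene targeted by the hairpin, was measured at 58.4 and 82.7 in the controls, 74.8 and 77.6 with harmine, and 60.2 and 61.9 with *Dyrk1a* shRNA. The *Dyrk1a* shRNA libraries lay within the range of the controls, and the harmine libraries did too. With *Dyrk1a* shRNA the log2 fold change against control was -0.19 (standard error 0.21, n = 2 against 2). Over the 4 treated libraries it was -0.02 (standard error 0.20). A lower mRNA level of the targeted gene was thus not detected in these libraries, and the label *Dyrk1a* shRNA was not checked by its target here.

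Of 10607 genes tested, 1 passed the quasi-likelihood test of edgeR after Benjamini-Hochberg correction (0.00943%) and was higher in the treated cells. No gene passed in the lower direction (0%). At an unadjusted p under 0.05 there were 264 genes higher (2.49%) and 409 lower (3.86%), and the Wald test of DESeq2 gave 1 gene after adjustment and 447 before it. All 4 treated libraries lay above both controls for 898 genes (8.47%) and below both for 833 genes (7.85%). The count of called genes depended on the controls. Without control replicate 2 it was 333, of which 28 were higher and 305 lower, and 240 of these 305 lay on the other side of control replicate 2. Without control replicate 1 it was 4. The 95% interval of the pooled log2 fold change reached a median of 0.51 to either side.

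*Gm20604* lies on the minus strand at chr12:102741732-102758672 of GRCm38 (mm10) and is annotated as protein coding, with exons of 1132 and 1663 bases. RefSeq gives it the synonyms AK010878-Moap1 and Moap1. The long 3′ exon contains the exon of 1165 bases that *Moap1*, which encodes a BAX-binding protein of apoptosis, has at chr12:102742230-102743394. The 2 genes therefore share 87.7% of the exon bases of *Moap1* and differ mainly in their 5′ exons. The windows from 250 bases before to 50 bases after their RefSeq starts (GRCm38.p6) are shown because the 2 genes are told apart by their separate starts, at chr12:102757761-102758060 for *Gm20604* and chr12:102743612-102743911 for *Moap1*, both on the minus strand. Capitals mark the 50 bases after the RefSeq start. For *Gm20604* the whole window lies inside the 5′ exon of GENCODE, which reaches chr12:102758672, so the 2 sources place its start differently. The annotated start of *Gon7*, at chr12:102757803 on the same strand, lies in this window too.

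Gm20604: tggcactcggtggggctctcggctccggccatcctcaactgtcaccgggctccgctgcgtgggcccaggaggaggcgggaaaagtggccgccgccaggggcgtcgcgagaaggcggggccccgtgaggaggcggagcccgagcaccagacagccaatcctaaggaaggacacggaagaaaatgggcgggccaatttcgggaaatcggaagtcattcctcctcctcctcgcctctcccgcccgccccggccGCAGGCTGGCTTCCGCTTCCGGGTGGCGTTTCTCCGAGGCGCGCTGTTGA

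Moap1: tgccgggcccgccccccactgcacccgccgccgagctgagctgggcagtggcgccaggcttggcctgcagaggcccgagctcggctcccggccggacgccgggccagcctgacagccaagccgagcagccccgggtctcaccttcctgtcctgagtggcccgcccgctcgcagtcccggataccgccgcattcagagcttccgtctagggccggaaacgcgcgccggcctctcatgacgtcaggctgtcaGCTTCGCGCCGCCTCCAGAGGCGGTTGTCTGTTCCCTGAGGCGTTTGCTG

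*Gm20604* was at 0 in both controls, at 22.7 and 15.8 with harmine, and at 13 and 16.5 with *Dyrk1a* shRNA. In expected counts these were 0 and 0, 76.23 and 60.2, and 34.38 and 56.47. Every treated library lay above both controls, and the treatments overlapped. A floor of 3 counts over both controls (1.08 CPM) covers counting error but not the division of shared reads with *Moap1*, described below. With the expected counts as they stand, *Gm20604* in the treated libraries together, at 17.2 CPM, stood 15.9-fold above that floor (adjusted p = 0.000698, edgeR). It passed for harmine alone (adjusted p = 0.00478, edgeR), where it was the 1 gene called (0.00943%), but not with the replicate number as a block (0.0545), at a minimum count of 50 (0.0644) or from these 4 libraries alone (0.104). It also passed for *Dyrk1a* shRNA alone (adjusted p = 0.00905, edgeR), where 2 genes were called (0.0189%), the other being lower, but not with the block (0.0515), at a minimum count of 50 (0.0597), or without control replicate 1 (0.146), *Dyrk1a* shRNA replicate 1 (0.0716) or *Dyrk1a* shRNA replicate 2 (0.0977). Both comparisons use the same control libraries. It was also the only gene with no count in either control and at least 10 counts in each treated library.

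*Moap1* showed the opposite pattern. Its levels were 24.5 and 15.2 in the controls, 0 and 4.22 with harmine, and 0 and 0 with *Dyrk1a* shRNA. All 4 treated libraries lay below both controls, and 3 of them were listed at 0. The fitted log2 difference of -4.03 had a standard error of 0.96 and did not pass (adjusted p = 0.733, edgeR).

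Added together, *Gm20604* and *Moap1* stood at 24.3 and 14.8 in the controls, 22.7 and 20.2 with harmine, and 13.2 and 16.6 with *Dyrk1a* shRNA. These sums overlapped between groups, and their log2 difference was -0.15 (standard error 0.29; edgeR, adjusted p = 0.956). Expected counts divide a read that fits both genes between them, so the 2 single levels are uncertain, while their sum does not depend on that division. Of the neighbours, *Tmem251*, which lies in the intron of *Gm20604* on the other strand, was at 18.8 and 14.3 in the controls and 8.43 to 11.2 in the treated libraries, all 4 below both controls, with a log2 fold change of -0.82 (standard error 0.30). *Ubr7*, a ubiquitin ligase gene whose start overlaps that of *Gm20604*, was at 86.0 and 82.7 against 83.2 to 110, with a log2 fold change of 0.18 (standard error 0.18). *AK010878*, named in the RefSeq synonym, was at 16.9 in each control and 15 to 17.9 in the treated libraries, with a log2 fold change of -0.06 (standard error 0.27).

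**Figure D1:**
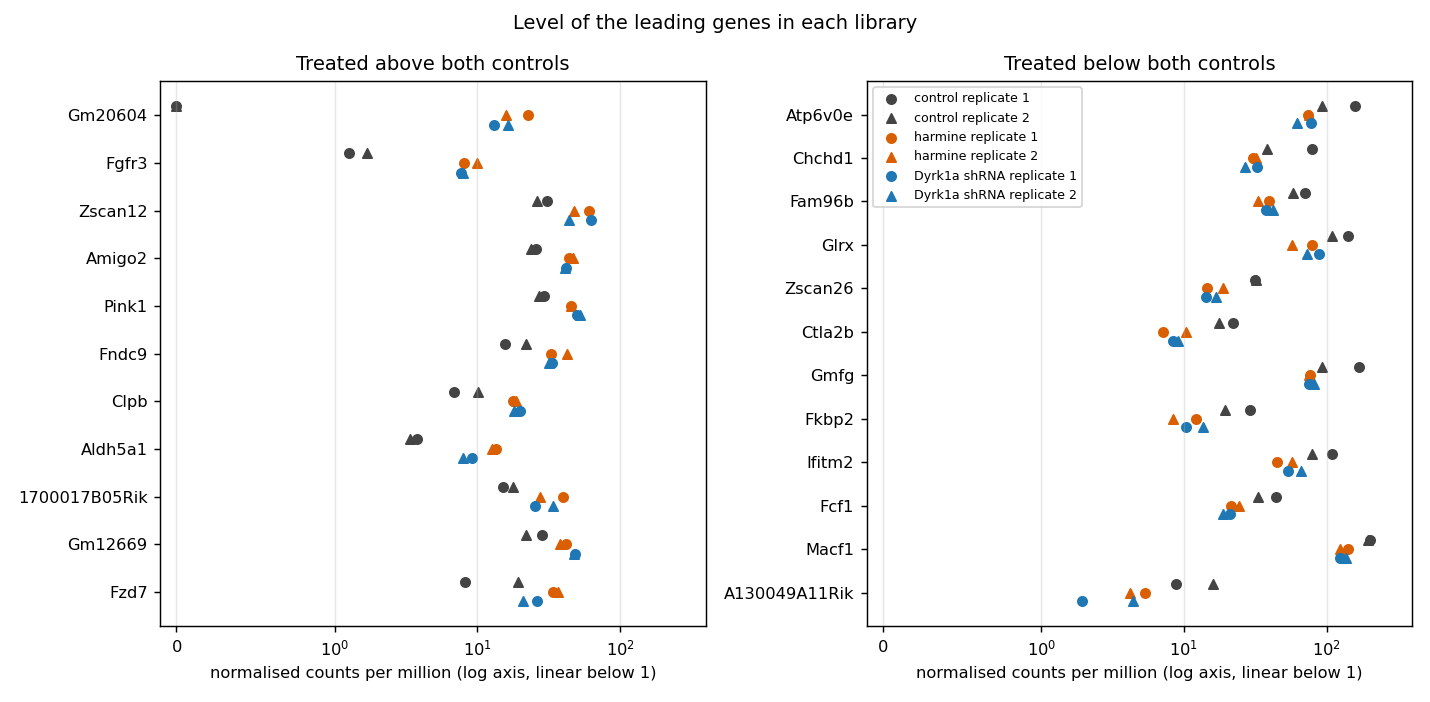
Normalised read counts in CPM (x axis, logarithmic above 1 and linear below) of 11 genes above and 12 below, from those with the smallest p whose treated libraries all lay on 1 side of both controls. Each point is 1 library (circles replicate 1, triangles replicate 2). Harmine and *Dyrk1a* shRNA points stand together on the same side of the grey controls, as the choice of genes requires, and *Gm20604* alone has controls at 0.

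Of the 12 leading genes above both controls, chosen by the smallest p, 11 did not pass. Those of cell surface proteins are given first. *Fgfr3*, a receptor tyrosine kinase for fibroblast growth factors at chr5:33721674-33737068, was at 1.26 and 1.69 in the controls, 8.05 and 10.0 with harmine, and 7.66 and 7.96 with *Dyrk1a* shRNA. Its controls rested on 2 counts each, and the log2 fold change was 2.52 (95% interval 1.35 to 3.68; edgeR, adjusted p = 0.655). *Fzd7*, a Frizzled receptor for Wnt proteins, was at 8.16 and 19.4 against 20.9 to 37.0, and its log2 fold change was 1.16 (standard error 0.34). *Amigo2*, a leucine-rich repeat adhesion protein, was at 25.7 and 23.6 against 41.0 to 46.7, with a log2 fold change of 0.81 (standard error 0.22). The gap to the controls was small for *Fzd7*, whose *Dyrk1a* shRNA replicate 2 nearly reached control replicate 2, and its log2 fold change was 0.60 without control replicate 1 and 1.86 without control replicate 2.

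Among genes of mitochondrial proteins, *Pink1*, the kinase that marks damaged mitochondria, was at 29.5 and 27.0 in the controls, 45.6 and 45.2 with harmine, and 50.2 and 52.5 with *Dyrk1a* shRNA (log2 fold change 0.77, standard error 0.21). *Clpb*, a disaggregase of the intermembrane space, was at 6.90 and 10.1 against 17.9, 18.7, 19.9 and 18.0 (log2 fold change 1.15, standard error 0.32). *Aldh5a1*, succinate semialdehyde dehydrogenase, was at 3.77 and 3.38, then 13.4 and 12.7 with harmine, and 9.20 and 7.96 with *Dyrk1a* shRNA (log2 fold change 1.58, standard error 0.45). For *Aldh5a1* the harmine libraries were the higher pair, and for *Pink1* the *Dyrk1a* shRNA libraries were. Further genes above were *Zscan12* (0.90), *Fndc9* (0.93), *1700017B05Rik* (0.96) and the processed pseudogene *Gm12669* (0.78, uncertain because a pseudogene can share reads with its parent gene).

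Of the 12 leading genes below both controls none passed. *Zscan26*, a zinc finger gene with a SCAN domain, was at 31.4 and 32.1 in the controls, 14.6 and 18.7 with harmine, and 14.2 and 16.8 with *Dyrk1a* shRNA. The controls were nearly equal, and the log2 difference was -0.97 (standard error 0.24; edgeR, adjusted p = 0.655). It lies at chr13:21442180-21453730, near *Zscan12* at chr13:21362820-21372289, which stood on the other side at 30.8 and 26.2 against 43.6 to 62.5. *Macf1*, which joins actin to microtubules, was at 203 and 194 against 125 to 141, with a log2 fold change of -0.59 (standard error 0.16). These 2 genes had controls close together, unlike several of the shorter genes that follow.

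*Atp6v0e*, a subunit of the proton pump of lysosomes, was at 158 and 92.9 in the controls and 62.5 to 77.4 in the treated libraries (log2 fold change -0.80, standard error 0.19). *Chchd1*, of the small mitochondrial ribosomal subunit, was at 78.5 and 38.0 against 26.8 to 32.6 (-0.96, standard error 0.23). *Gmfg*, which debranches actin filaments, was at 168 and 92.9 against 75 to 81.1 (-0.77, standard error 0.19). In each of these the treated libraries lay much nearer control replicate 2 than control replicate 1, and without control replicate 1 the log2 fold changes were -0.36 for *Atp6v0e*, -0.33 for *Chchd1* and -0.28 for *Gmfg*. The redox enzyme gene *Glrx* was at 141 and 110 against 57.6 to 88.1 (-0.76, standard error 0.19), and *Fam96b*, of iron-sulphur protein assembly, was at 70.9 and 58.2 against 33.3 to 41.9 (-0.77, standard error 0.19). The others were *Ctla2b* (-1.18), *Fkbp2* (-1.14), *Ifitm2* (-0.76), *Fcf1* (-0.85) and *A130049A11Rik* (-1.56), of which *Ctla2b* and *Ifitm2* have close relatives that can share their reads.

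The drug and the *Dyrk1a* shRNA were then set side by side for these genes. Both comparisons use the same controls, so a like sign in both is partly built in, and the genes were chosen for lying on 1 side in all 4 libraries. They were also chosen by p from a fit with 1 mean for both treatments, where a difference between treatments counts as spread. Genes that differ between treatments were thus less likely to be chosen, so the direct comparison below cannot show that the treatments agree. *Fgfr3* had log2 fold changes of 2.61 (standard error 0.58) with harmine and 2.40 (standard error 0.60) with *Dyrk1a* shRNA. *Ctla2b* had -1.19 (standard error 0.33) and -1.18 (standard error 0.34). In the direct comparison of the treatments, fitted together with the controls, which share in its estimate of the spread, no leading gene passed, the smallest adjusted p from edgeR being 0.83. Fitted on the 4 treated libraries alone none passed either (smallest adjusted p 0.357). At an unadjusted p under 0.05, 1 of the 24 genes, *Fzd7*, differed between treatments (1.43 with harmine and 0.82 with *Dyrk1a* shRNA, each with the same controls).

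**Figure D2:**
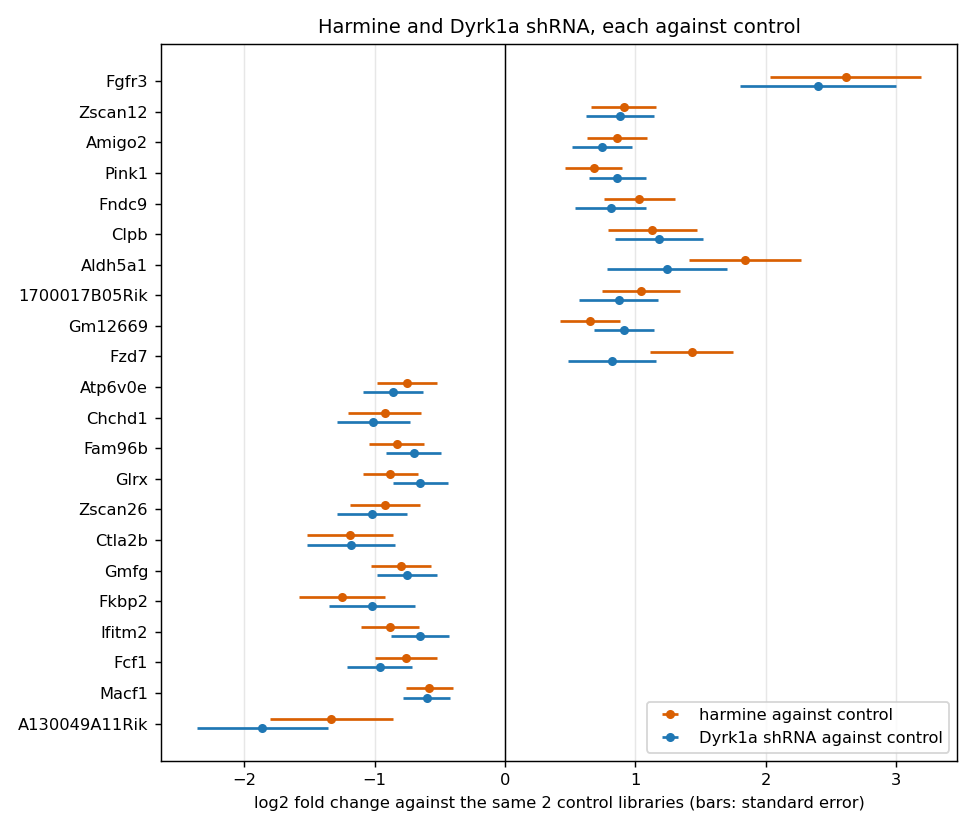
Log2 fold change (x axis) of harmine against control and of *Dyrk1a* shRNA against control for 22 of the leading genes, *Gm20604* not among them, with bars of 1 standard error. Both series share the 2 control libraries. The bars of the 2 treatments overlap for every gene shown, which the choice of genes favours. *Fgfr3* is the highest and *A130049A11Rik* the lowest.

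Across all genes 1 gene passed between the treatments (0.00943%), the ribosomal protein gene *Rps27*, which was named after its values were seen. It was at 196 and 252 in the controls, 92.1 and 168 with harmine, and 21.5 and 11.5 with *Dyrk1a* shRNA. All 4 treated libraries lay below both controls. The *Dyrk1a* shRNA libraries were lower than the harmine libraries, by a log2 difference of -3.01 (standard error 0.34, adjusted p = 0.0175 with edgeR). The difference did not pass with the replicate number as a block (adjusted p = 0.0623, edgeR), with length and GC trends removed (0.989), or without control replicate 2 (0.06), *Dyrk1a* shRNA replicate 1 (0.0524) or *Dyrk1a* shRNA replicate 2 (0.134), while its size was -2.51 to -3.50 over all 15 alternatives. The pooled log2 fold change was -1.59 with a standard error of 1.11. Ribosomal protein genes have many near-identical pseudogene copies, so this level is uncertain.

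Gene lists were read against the background of 8.47% of all tested genes above and 7.85% below both controls. These shares varied with transcript length and GC content, as given further below. Of all 10607 genes, 5485 had a pooled log2 fold change below 0. At an unadjusted p under 0.05 (edgeR), 2.49% were higher and 3.86% lower. In none of the 25 lists did a gene pass, with edgeR or with DESeq2, whose 1 call was also *Gm20604*. Of 52 DNA replication genes 2 lay higher and 1 lay lower with an unadjusted p under 0.05, and 11 (21.2%) lay above both controls in all 4 treated libraries, and 2 (3.85%) lay below. Their median log2 fold change was 0.15 against -0.01 over all genes, 0.22 without control replicate 1 and 0.08 without control replicate 2. *Mcm5*, of the replicative helicase, was at 35.2 and 38.8 in the controls, 56.6 and 54.1 with harmine, and 51.3 and 51.9 with *Dyrk1a* shRNA (log2 fold change 0.54, standard error 0.20). *Pold1*, the catalytic subunit of a replicative polymerase, was at 25.1 and 18.6 against 29.8 to 41.8 (0.64, standard error 0.24). The other 9 above were *Lig1*, *Rrm1*, *Mcm3*, *Chaf1a*, *Chaf1b*, *Gins3*, *Uhrf1*, *Mcm7* and *Orc3*, and below were *Mcm10* and *Rfc1*.

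Of 62 genes of mitosis and cytokinesis 6 had an unadjusted p under 0.05 in the higher direction and 2 in the lower. All 4 treated libraries of 12 (19.4%) lay above both controls and of 4 (6.45%) below, with a median log2 fold change of 0.15. The mitotic kinase gene *Plk1* was at 23.2 and 26.2 in the controls and 31.5 to 39.6 in the treated libraries (0.58, standard error 0.23). *Kif18b*, a kinesin that shortens microtubules, was at 22.0 and 24.5 against 29.2 to 42.5 (0.68, standard error 0.24). *Spc24*, of the kinetochore, went the other way, at 65.9 and 62.5 against 38.3 to 50.4 (-0.48, standard error 0.19). The list as a whole was less even between treatments, with 50 of 62 members above 0 with harmine (median 0.25) and 30 with *Dyrk1a* shRNA (median -0.02), 2 comparisons with the same controls whose difference was not tested. Against control replicate 1 alone its median was -0.04 and against control replicate 2 alone 0.22.

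Genes of the G1 phase were near the background. Of 32 tested 0 had an unadjusted p under 0.05, 4 (12.5%) lay above both controls and 2 (6.25%) below. *Ccnd3*, a D-type cyclin, was at 485 and 424 in the controls and 492 to 534 in the treated libraries (0.18, standard error 0.17), a gap narrower than that between the controls. *Lin37*, a DREAM complex component, was at 33.3 and 27.0 against 18.8 to 24.3 (-0.47, standard error 0.23). Of 25 p53 target genes 5 (20%) lay above both controls and 1 (4%) below, and 2 had an unadjusted p under 0.05 (both higher). Among them *Gtse1*, a G2 and S phase protein, was at 10.7 and 16 against 18.3 to 28.4 (0.87, standard error 0.30), and *Ddit4*, an inhibitor of mTORC1 signaling, was at 390 and 365 against 496 to 557 (0.48, standard error 0.17).

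Glycolysis genes held the largest share above both controls among the 25 lists, 6 of 25 (24%), and 1 lay below (4%). At an unadjusted p under 0.05 there were 0 genes. The median log2 fold change was 0.17 against control replicate 1 alone and 0.18 against control replicate 2 alone. It was less even between treatments, at 0.08 with harmine (18 of 25 above 0) and 0.29 with *Dyrk1a* shRNA (22 of 25), a difference that was not tested, and the pooled median of 0.17 was 0.09 with length and GC trends removed. *Slc2a1*, the glucose transporter GLUT1, was at 223 and 202 in the controls and 236 to 293 in the treated libraries (0.31, standard error 0.17). *Gpi1*, phosphoglucose isomerase, was at 1030 and 1020 against 1170 to 1580 (0.38, standard error 0.21). The enolase gene *Eno1* stood below, at 208 and 213 against 157 to 191 (-0.29, standard error 0.16), and it too has pseudogene copies.

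NFAT signaling and T cell receptor genes gave few differences. Of 20 genes of NFAT, calcineurin and their regulators 1 had an unadjusted p under 0.05 (higher), 3 (15%) lay above both controls and 1 (5%) below, and the median log2 fold change was 0.03. *Gsk3a*, another NFAT kinase, was at 84.1 and 100 in the controls and 105 to 130 in the treated libraries (0.39, standard error 0.18). *Rcan1*, an inhibitor of calcineurin that NFAT induces, was at 6.90 and 5.06 against 8.05 to 11 (0.59, standard error 0.39). *Nfat5* was at 130 and 147 against 98.1 to 124 (-0.34, standard error 0.17). Of 31 T cell receptor response genes, 4 (12.9%) lay above both controls and none below, among them *Junb* at 264 and 239 against 290 to 353 (0.33, standard error 0.16). Of 36 genes of the receptor complex and proximal signaling, 3 (8.33%) lay above both controls and 2 (5.56%) below. *Cd3g*, a chain of the complex, lay below, at 314 and 265 in the controls, 233 and 232 with harmine, and 173 and 185 with *Dyrk1a* shRNA (-0.49, standard error 0.17). *Cd247*, another chain, lay above, at 161 and 168 against 174 to 183 (0.12, standard error 0.16). Of 12 DYRK and CLK kinases and harmine targets tested, 2 lay above both controls and none below, *Pim3* at 109 and 102 against 141 to 147 (0.43, standard error 0.17) and *Csnk1d* at 178 and 193 against 201 to 252 (0.24, standard error 0.17).

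Lineage genes bear on the study's question of how DYRK1A acts on Treg and Th17 fates. None of 25 Treg-associated genes passed or had an unadjusted p under 0.05, and their median log2 fold change was 0.00. None lay above both controls and 1 lay below, *Ebi3*, a subunit of the cytokine IL-35, at 5.02 and 4.22 against 1.49 to 3.43 (-0.98, standard error 0.57). Of 24 Th17-associated genes 1 lay above and 2 below, 1 had an unadjusted p under 0.05 (lower), with a median of 0.28 against control replicate 1 and -0.31 against control replicate 2. *Il1r1*, the IL-1 receptor, was at 13.2 and 17.7 in the controls, 3.58 and 5.54 with harmine, and 11.5 and 8.55 with *Dyrk1a* shRNA (-1.09, standard error 0.40). Apart from IL-2, the labels name no cytokine in these cultures.

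Of 25 Th1-associated and cytotoxic genes 21 were below 0, with a median of -0.35, and 5 had a lower level at an unadjusted p under 0.05 without passing. The median was -0.48 against control replicate 1 alone and -0.10 against control replicate 2 alone, and the fitted median without control replicate 1 was -0.08, so most of it rested on that library. All 4 treated libraries lay below both controls for 3 of them (12%, against 7.85% over all genes) and above for none. *Ccl5*, a chemokine, was at 10.7 and 10.1 in the controls and 2.98 to 6.13 in the treated libraries (-1.16, standard error 0.41). *Tbx21*, which encodes the Th1 regulator T-bet, was at 6.90 and 5.91 against 2.90 to 4.21 (-0.78, standard error 0.45), and *Gzmc*, a granzyme, was at 33.9 and 32.1 against 21.7 to 31.5 (-0.40, standard error 0.23). The summed level of CD8 T and NK cell markers, of which 5 of 15 were at 0 in every library, was 75.3 and 46.4 in the controls. In the treated libraries it was 46.7 to 56.3, and its part in these values was not tested.

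Interferon response genes were below 0 for 28 of 37, with a median of -0.16, -0.11 against control replicate 1 alone and -0.23 against control replicate 2 alone. The fitted median was -0.15 without control replicate 1 and -0.01 without control replicate 2. At an unadjusted p under 0.05, 6 were lower, and none passed. All libraries of 4 genes (10.8%) lay below both controls, and of none above. *Ly6a*, the surface protein Sca-1, was at 333 and 283 in the controls, 103 and 164 with harmine, and 207 and 210 with *Dyrk1a* shRNA (-0.85, standard error 0.23). The GTPase genes *Irgm2*, *Irgm1* and *Igtp* completed the 4, with log2 fold changes of -0.54, -0.36 and -0.23. Of these, *Irgm2* and *Igtp* overlap on the same strand and can share reads, so their single levels are uncertain. Among naive and homing genes, *Il7r*, the IL-7 receptor, was at 58.4 and 80.2 against 38.3 to 53.3 (-0.65, standard error 0.20), and *Dapl1* was at 16.3 and 12.7 against 5.96 to 8.43 (-1.12, standard error 0.33), while *Ccr7*, a homing receptor, was at 490 and 485 against 519 to 603 (0.22, standard error 0.18). That list of 41 had a median of 0.00.

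Genes of protein folding and stress lay on both sides. Of 28 unfolded protein response genes, 3 (10.7%) lay above both controls and 5 (17.9%) below, with a median of -0.03. *Sec61a1*, of the channel through which proteins enter the endoplasmic reticulum, was at 115 and 140 in the controls, 160 and 165 with harmine, and 233 and 157 with *Dyrk1a* shRNA (0.49, standard error 0.19). *Selk*, a selenoprotein of the same membrane, lay below at 95.4 and 91.2, then 66.8 and 64.7, and 56.3 and 62.8 (-0.57, standard error 0.17). Of 28 amino acid and ATF4 response genes, 3 (10.7%) lay above and 1 (3.57%) below, with a median of 0.01. Among them *Ppp1r15a*, the stress-induced subunit of the phosphatase that restores translation, was at 47.7 and 39.7 against 60.5 to 65.7 (0.53, standard error 0.19). Of 18 heat shock genes 3 lay above and 2 below, with a median of -0.03.

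The remaining medians were 0.24 for 11 Th2-associated genes (1 above both controls, 2 below; 0.04 without control replicate 1), -0.01 for 36 genes of the T cell receptor complex (3 above, 2 below), 0.05 for 31 genes of cholesterol and fatty acid synthesis (3 above, 2 below) and -0.07 for 43 splicing regulators (3 above, 2 below). *Gata3*, the Th2 regulator, was at 40.2 and 44.7 in the controls and 31.0 to 39.8 in the treated libraries (-0.27, standard error 0.20), although the Th2 list as a whole had a median above 0. The 46 proteasome subunits had a median of -0.17 (2 above, 6 below), -0.32 against control replicate 1 and 0.06 against control replicate 2. *Psmb5*, a catalytic subunit, was at 122 and 75.1 against 64.3 to 72.3 (-0.57, standard error 0.19), nearer the second control than the first.

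**Figure D3:**
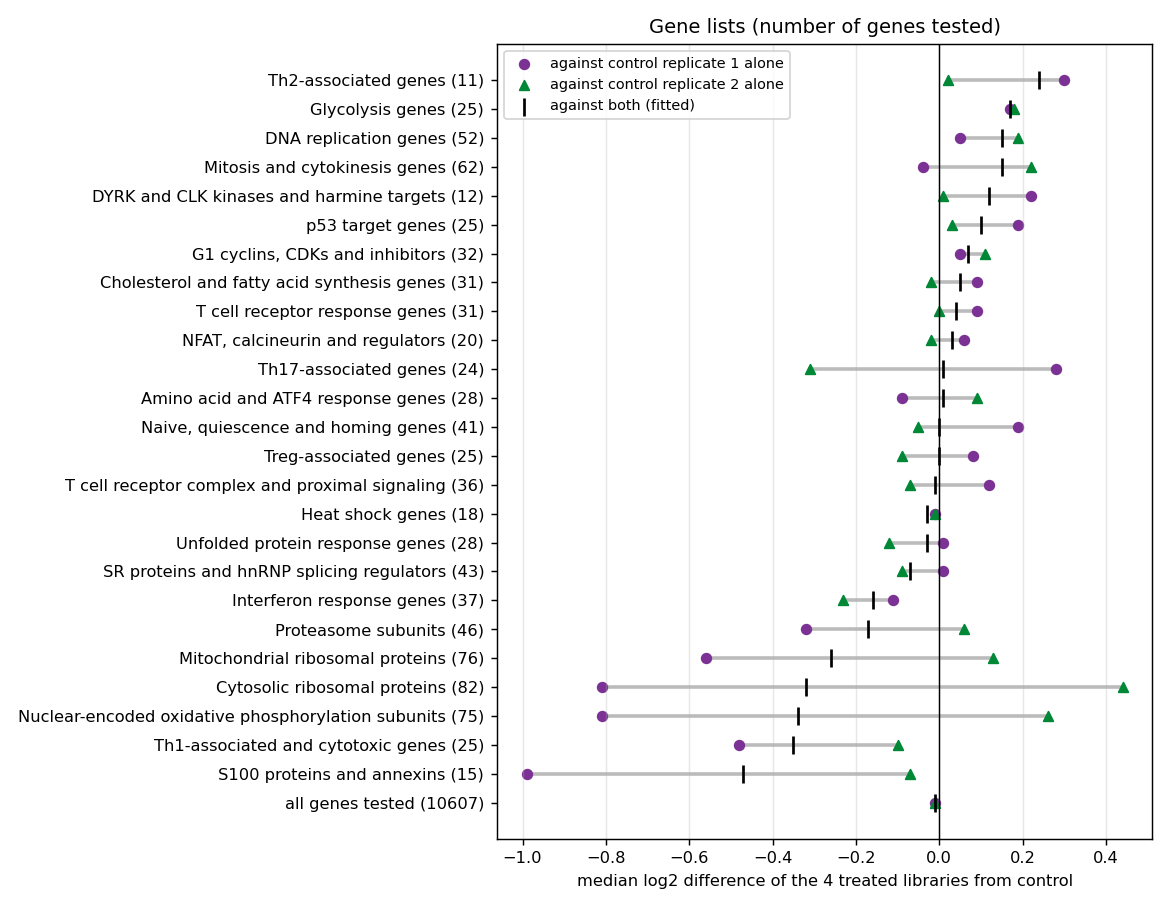
Median log2 difference of the 4 treated libraries from control (x axis) for each of 25 gene lists and for all genes tested, with control replicate 1 alone (circles), control replicate 2 alone (triangles) and both together (black ticks). Glycolysis, DNA replication and interferon response genes keep their side with either control, and ribosomal protein and oxidative phosphorylation genes change side.

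For ribosomal and respiratory chain genes the direction depended on the control. Of 82 cytosolic ribosomal protein genes 75 were below 0, with a median of -0.32, but the median was -0.81 against control replicate 1 and 0.44 against control replicate 2. *Rpl31* was at 1480 and 588 in the controls and 650 to 755 in the treated libraries, between the controls. Of the 82, 1 (1.22%), *Rps27*, lay below both controls, which is under the background of 7.85%. Nuclear-encoded subunits of oxidative phosphorylation had a median of -0.34 over 75 genes, -0.81 against control replicate 1 and 0.26 against control replicate 2, and 0 lay below both controls. *Atp5g1*, of the ATP synthase, was at 90.4 and 41.4 against 40.7 to 48.1. Mitochondrial ribosomal protein genes had a median of -0.26 over 76 genes, with 1 above and 8 (10.5%) below both controls, -0.56 against control replicate 1 and 0.13 against control replicate 2.

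The S100 proteins and annexins (median -0.47 over 15 genes) also rested mostly on control replicate 1, at -0.99 against it and -0.07 against control replicate 2. *S100a9*, a calcium-binding protein abundant in neutrophils, lay below both controls at 9.42 and 6.75 against 2.38 to 3.83 (-1.45, standard error 0.45). The summed level of myeloid markers, to which *S100a9* belongs, was 382 and 208 in the controls and 211 to 245 in the treated libraries. Of 20 such markers 2 were at 0 in every library and 9 were tested, of which 7 were below 0 and 2 above. *S100a8* overlapped the controls, at 14.4 and 1.69 against 1.85 to 3.83. *Cd68* lay above both, at 2.51 and 2.53 against 2.98 to 5.75, with controls of 4 and 3 counts. B cell markers, 10 tested of 15 and 1 at 0 in every library, summed to 389 and 251 in the controls and 268 to 319 in the treated libraries. Markers of erythroid cells and platelets summed to 34.5 and 26.2 against 20.3 to 25.9 (3 tested of 14), and stromal and endothelial markers to 76.0 and 81.0 against 66.8 to 82.8 (3 tested of 15). The part of these cell types in the values was not tested.

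The genes whose groups did not overlap differed in transcript length and GC content. Their median length was 3044 bases for those above, 3056 for those below and 3086 over all genes, but only 0.223% of those above were shorter than 1000 bases, against 6.27% of those below and 5.3% of all. In the shortest 10% of transcripts (109 to 1281 bases) 1.23% of genes lay above both controls and 10.4% below, and control replicate 1 stood 0.545 log2 units above the mean of the 6 libraries while control replicate 2 stood at -0.246. Median GC content was 53.2% for genes above and 46.8% for genes below, against 50% over all. From the lowest to the highest 10% of GC content, the share above both controls went from 3.42% to 14.7% and the share below from 10.4% to 3.61%. Of the 12 leading genes below, 5 were shorter than 1000 bases, and of those above none was. With length and GC trends removed, the median log2 fold change was 0.15 for DNA replication genes, 0.14 for mitosis genes and 0.00 for ribosomal protein genes. Without control replicate 2, and with the trends left in, that of mitosis genes was -0.02. The part of length and GC content in these medians was not tested. In the decile of 2657 to 3086 bases, 14% of genes lay above both controls and 6.27% below. The median length of the DNA replication list and of the glycolysis list, 2879 bases each, falls in that decile. The part of length and GC content in the shares of the lists was not tested either.

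**Figure D4:**
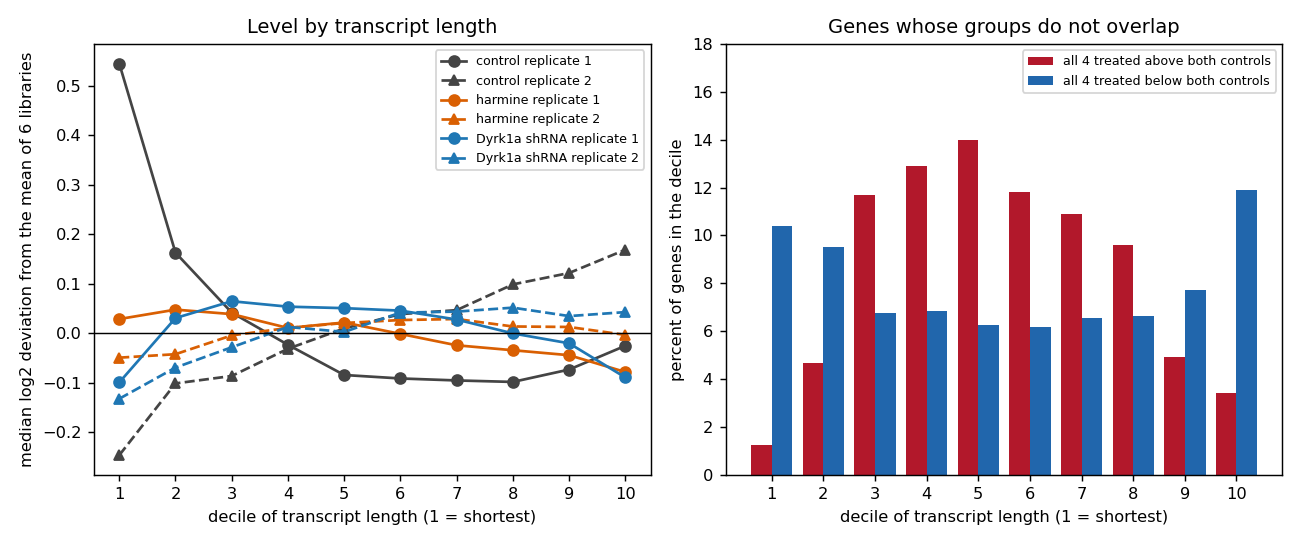
Left, median log2 deviation of each library from the mean of the 6 (y axis) by decile of transcript length (x axis), with solid lines for replicate 1 and dashed lines for replicate 2. Right, percent of genes in each decile whose 4 treated libraries all lay above (red) or below (blue) both controls. Control replicate 1 stands 0.545 above the mean in the shortest decile, where 1.23% of genes lay above both controls and 10.4% below.

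Promoter windows of 300 bases around RefSeq starts were at hand for 7979 of the tested genes. The letters TGGAAA, a core that NFAT proteins bind, were found on either strand in 19.1% of them, in 16.5% of those above both controls and in 20.7% of those below. The letters TTTGAA, the CHR element of cell cycle promoters, were in 13.9%, 14.7% and 13.8%. Genes with TGGAAA had a median log2 fold change of -0.02 and genes with TTTGAA one of -0.01, against -0.01 over all genes. Neither motif was in the window of *Gm20604* printed above, which is that of its RefSeq start only. These are descriptions of letters, and binding was not measured.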

How the data were processed

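RNAseq libraries of activated mouse CD4+ T cells were compared, 2 control, 2 harmine and 2 *Dyrk1a* shRNA. The authors sequenced polyadenylated RNA in Nextera libraries, which do not mark strand, used TopHat (2.0.13 of TopHat2, by the submitters' processing notes) with mm10, and deposited expected counts per gene from RSEM, without normalization. How RSEM divides reads between overlapping or duplicated genes affects their levels.

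From these, counts were rounded. The test was that of edgeR 4.0.16, run under R 4.3.3 (TMM, filterByExpr with minimum count 10, robust quasi-likelihood, two-sided, Benjamini-Hochberg, threshold 0.05), leaving 10607 of 23420 genes. The pooled comparison was fitted with 2 levels, treated and control, and single treatments with 3 group means. Standard errors come from the F statistic, and a floor of 3 counts was used against a group at 0. Floors and intervals cover counting error or library spread only. The test was tested on simulated data (200 changed genes in 5 data sets).

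Up to 12 genes per direction with treated libraries on 1 side of both controls (first by fold among those that pass, then by smallest p), up to 3 members of each of 25 lists by smallest p, *Dyrk1a* and overlapping genes were named. Of these, 1 gene is not reported here. Other list members named lie on 1 side of both controls, and these, with *Ccnd3*, *Rps27* and the genes named under the alternatives, were chosen after their values were seen. Members and lists were chosen with earlier results of these data known. Positions come from GENCODE M21 on GRCm38, with 98.4% of symbols matched, and promoters from RefSeq (GRCm38.p6). Transcript length and GC content are those of the longest annotated transcript of a gene, a protein-coding one where present. It need not be the transcript expressed, so some genes of short mRNAs can be listed as long. Alternatives were other scalings, filters and fits, DESeq2 1.42.0, thinning, trend removal, and leaving out each library. Sums, motifs and comparison with each control were chosen after seeing the data.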

Additional observations from a re-analysis of the deposited data

Results flagged for a closer look

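In 6 named genes, 1 of the 4 treated libraries stood apart from the other three by more than Dixon's critical value (for the gap to the nearest library divided by the range). The ratios were 0.838 for *Fgfr3* and 0.840 for *Fndc9*, where harmine replicate 2 was the highest, 0.832 for *Gmfg*, where *Dyrk1a* shRNA replicate 2 was the highest, 0.896 for *Sec61a1*, a translocon subunit, where *Dyrk1a* shRNA replicate 1 was the highest, 0.844 for *Hnrnpa0*, where harmine replicate 1 was the highest, and 1.000 for *Moap1*, where harmine replicate 2 alone had counts. Chance flags about 1 in 20 groups, and 103 genes were named. *Rps27* was lower with *Dyrk1a* shRNA than with harmine by a log2 difference of -3.01 in the direct comparison of the treatments.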

How the results depend on the processing

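In the pooled comparison *Gm20604* passed under all 15 alternatives (adjusted p 9.01e-12 to 0.0409), but for harmine alone it was lost in 3 of 15 and for *Dyrk1a* shRNA alone in 5 of 15, and *Rps27* between the treatments in 5 of 15. Of 103 named genes 93 kept their direction in every alternative, including the 24 leading genes, but sizes moved. Of the 23 leading genes other than *Gm20604*, 5 were smaller by over 1.5 times without control replicate 1 (*Fzd7* 0.60, *Atp6v0e* -0.36, *Chchd1* -0.33, *Gmfg* -0.28, *Ifitm2* -0.50) and 4 with trends removed (*Chchd1* -0.54, *Gmfg* -0.40, *Ifitm2* -0.49, *Fcf1* -0.50), and 11 passed without control replicate 2. Those that turned, *Dyrk1a* apart, did so without control replicate 1, where leaving out libraries gave -0.89 to 0.02 for *Tnf*, -1.05 to 0.27 for *Rpl31*, -1.01 to 0.24 for *Rpl35a*, -1.17 to 0.30 for *Rps27l*, -0.99 to 0.01 for *Mrps14*, -1.07 to 0.05 for *Atp5g1*, -1.50 to 0.06 for *Ndufa5*, -0.76 to 0.05 for *Psma7* and -2.26 to 0.80 for *S100a8*. *Dyrk1a* was at 0.01 with length and GC trends removed and -0.27 to 0.24 with a library left out, positive without control replicate 2 or either *Dyrk1a* shRNA library.

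The pooled count of 1 was 12 with no filter (11 lower), 2 after thinning to the smallest library (1 lower, *Moap1*), 2 from 3 group means (1 lower, *Rps27*) and 1 to 333 with a library left out (1 to 28 higher, 0 to 305 lower). It was 333 without control replicate 2, of which 305 were lower (63 ribosomal protein and 42 oxidative phosphorylation genes, median length 846 bases) and 240 of these lay on the other side of control replicate 2. It was 4 without control replicate 1 and 2 without harmine replicate 2.

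For harmine the count was 20 with no filter, 0 at a minimum count of 50, 3 with DESeq2, 0 from the pair alone and 1 to 291 with a library left out. For *Dyrk1a* shRNA it was 28 with no filter, 5 from the pair alone and 1 to 439. Between treatments it was 3 by library size alone, 22 with no filter, 2 with DESeq2, 0 with trends removed, 4 from the pair alone and 0 to 5. Without control replicate 2 the first 2 were 291 and 439.

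Whether replicate numbers pair the libraries cannot be settled with 2 numbers. Correlations of deviations were 0.11 for control and harmine, 0.02 for control and *Dyrk1a* shRNA, and 0.22 for harmine and *Dyrk1a* shRNA. The chi-square statistic per degree of freedom between harmine and *Dyrk1a* shRNA libraries was 4.67 and 4.04 for like numbers. For unlike numbers it was 6.11 and 5.45. With the number as a replicate block the pooled count was 1, and the harmine and between-treatment counts were 0 and 0. Genes above and below both controls numbered 538 and 567 after thinning, and 1110 to 2922 and 1059 to 2991 with a library left out. Ribosomal protein genes had a median of 0.45 without control replicate 1, -0.81 without control replicate 2 and 0.00 with trends removed. The causes were not tested.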
